A study of Homo sapiens with 12 samples.

Results

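The comparison described here sets H69 cholangiocytes given TGFβ and Aramchol together against the same cells given vehicle, which is 6 of the 12 RNA sequencing libraries of the series (3 in each group). H69 is an immortalised human line of cholangiocytes, the epithelium of the bile ducts. All cells first went 6 h without serum and then stayed overnight in medium free of serum. The combined group received 10 ng/mL TGFβ together with 30 µM Aramchol, the vehicle group neither, and the remaining groups, of 3 libraries each, one agent at the same dose. The members were chosen by treatment label alone, and the TGFβ and Aramchol groups are used to ask which genes stay away from the vehicle level and which changed only when both agents were present. The labels do not say whether the replicates of a group were separate cultures. P-values here weigh differences between groups against the spread among libraries of a group, which may be technical only.

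TGFβ is a cytokine that binds a receptor kinase pair and sends SMAD transcription factors to the nucleus, where they raise matrix and feedback inhibitor genes and lower epithelial genes. In bile duct epithelium it is known for its part in fibrosis around ducts. Aramchol joins a bile acid to a saturated fatty acid and lowers stearoyl-CoA desaturase (SCD), the enzyme that makes monounsaturated fatty acids.

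Total counts were 62114944, 58360888 and 63731156 in the vehicle libraries and 67718299, 61867133 and 70339925 in the libraries with both agents. Of 25 cholangiocyte markers, 19 passed the filter on low counts, with KRT7, KRT8, KRT18, SOX9 and SOX4 present, whereas CFTR, SCTR, PKHD1 and SPP1 reached at most 0.169 CPM and SLC10A2 had no count in any of the 12 libraries. The summed level of the cholangiocyte markers was 2028 to 2894 CPM with vehicle and 2989 to 3213 CPM with both agents. KRT8 and KRT7 weigh most in this sum, at up to 965 and 937 CPM. Of the 19 tested, 6 were higher and 6 lower (median log2 change 0.02), so the sum does not stand for the list. Markers of other cell types were partly present. Of 13 leukocyte markers, 11 were under 1 CPM in each library, with CD3E at 0 and PTPRC at most at 0.154 CPM, whereas CD14 and CSF1R reached 35.6 and 20.7 CPM. Their summed level was 31.9 to 37.2 CPM with vehicle and 20.4 to 21.1 CPM with both agents. Of 3 tested, 1 was higher and 1 lower, with log2 changes of 4.50 and -2.32. Of 16 hepatocyte markers, 8 were under 1 CPM, with TTR at 0 and ALB at most at 0.158 CPM, whereas the highest member reached 99.4 CPM. Their sum was 116 to 179 CPM against 95.1 to 104 CPM, with 2 higher and 6 lower of 10 tested. Of 13 endothelial markers, 7 were under 1 CPM, with EMCN at 0, whereas EGFL7 and PECAM1 reached 33.0 and 12.9 CPM. Their sum was 40.4 to 55.0 CPM against 41.1 to 46.9 CPM, with 3 higher and 1 lower of 10 tested. Vehicle replicate 3 stood apart from the other vehicle libraries: on the second principal component (7.15% of variance) it lay at 5.32 against -24.8 and -27.3. On the third component (6.68%) the libraries numbered 3 were the highest of each group, at 17.0 to 35.1 against -20.4 to -5.50. A term for number 3, and the libraries numbered 1 and 2 alone, were tried as alternatives. Where either changes the call against vehicle of a gene named below by rule, this is said beside it. The further list members given as examples were not checked gene by gene in this way.

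With both agents, 7593 of 21567 tested genes differed from vehicle (35.2%), 3928 of them higher (18.2%) and 3665 lower (17.0%), by edgeR's quasi-likelihood test at a Benjamini-Hochberg adjusted p under 0.05, which is what "called" means throughout. Of these, 2156 genes (10.0%) differed at least 2-fold, 1117 upward (5.18%) and 1039 downward (4.82%). The 3 and 3 libraries did not overlap for 9493 genes (44.0%). The estimate for 9876 genes (45.8%) lay near vehicle, meaning that the 95% interval of the log2 fold change stayed within 1.5-fold in both directions, and 2890 of those were called nonetheless (13.4%), as small differences. For the remaining 6988 genes (32.4%) the libraries neither gave a call nor placed the interval near vehicle. Upper quartile scaling moved the calls to 3252 upward and 4410 downward. For comparison, TGFβ alone was called against vehicle in 37.0% of tested genes (18.9% higher, 18.1% lower) and Aramchol alone in 0.357% (0.236% higher, 0.121% lower). Both agents were called against TGFβ in 2.25% (0.890% higher, 1.36% lower) and against Aramchol in 30.2% (16.0% higher, 14.2% lower). All levels below are in CPM, a gene's counts scaled to the size of its library by TMM, and fold changes are log2 values from edgeR. In bulk RNA, fewer cells of a kind and less RNA per cell cannot be told apart.

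The matrix genes stayed far above vehicle with both agents. FN1 (ENSG00000115414, chromosome 2, 215360440 to 215436073, minus strand, GRCh38), which encodes fibronectin, was at 666, 685 and 627 CPM with vehicle and 3686, 4091 and 4554 CPM with both agents. The lowest library with both agents was several times the highest vehicle library. The log2 fold change was 2.64 (SE 0.09, edgeR adjusted p = 5.78e-12), where TGFβ alone, against the same vehicle libraries, gave 3.49. COL1A1, the main chain of type I collagen, was at 1136, 1083 and 955 CPM with vehicle and 3034, 3067 and 4315 CPM with both agents, again without overlap (1.71, SE 0.14). TGFBI, a matrix protein that binds integrins, was at 689, 697 and 575 CPM against 4409, 4108 and 5055 CPM, a log2 change of 2.79. Of 15 tested fibrillar and related collagens, 11 were higher and 2 lower (median log2 change 1.85, against -0.02 over all tested genes). Of 29 matrix glycoproteins and proteoglycans, 18 were higher and 3 lower, among them TNC (4.15), SPARC (1.37) and ELN (1.12). CCN4, a matricellular protein, fell by 1.14. The enzymes that modify and cross-link collagen were higher in 15 of 22 cases and lower in 1, led by P4HA3 (2.99) and including the cross-linker LOX (1.85). Basement membrane genes divided, with 10 of 21 higher and 7 lower: COL4A1 (2.34), a chain of type IV collagen, rose, whereas the perlecan gene HSPG2 fell by 0.83 and LAMA5 by 0.39.

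**Figure D1:**
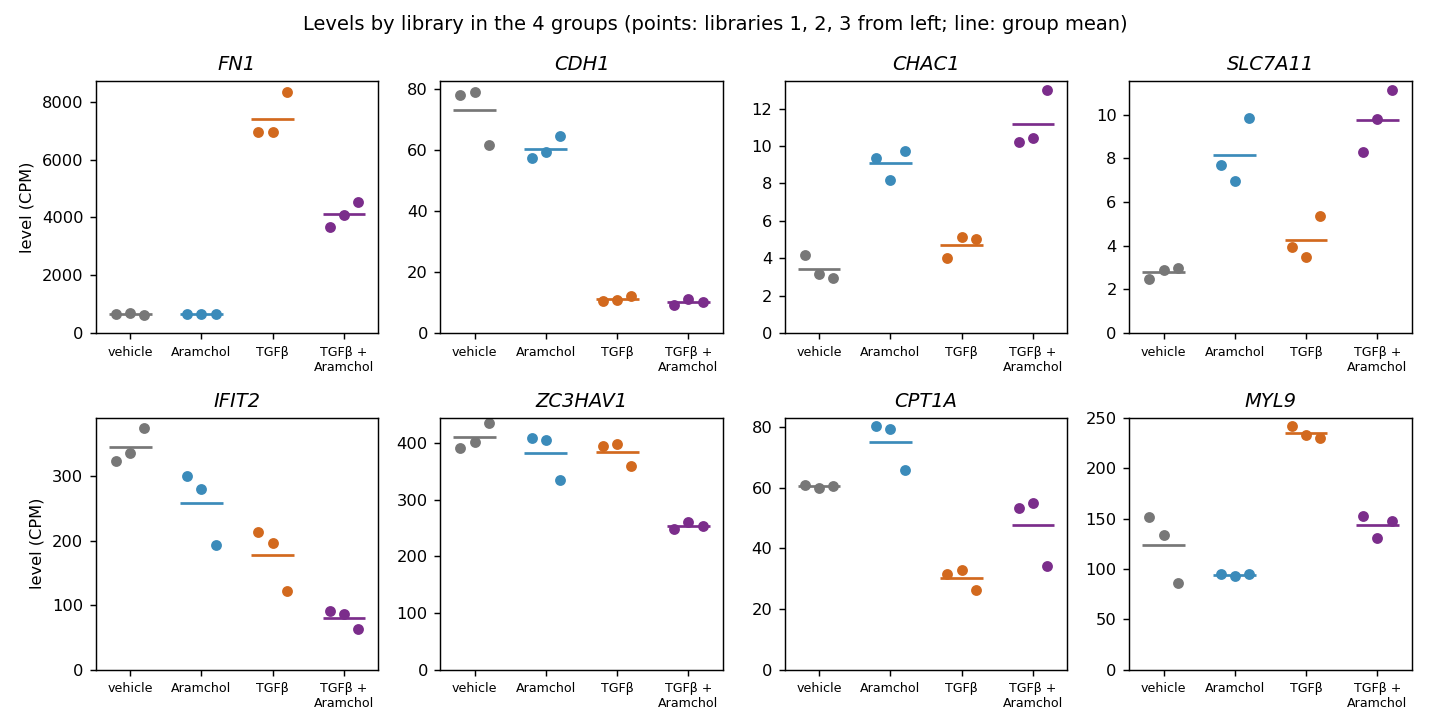
Levels in CPM (vertical axis, from 0) of 8 genes in each library of the 4 groups, with the group mean as a line. FN1 with both agents sits between TGFβ alone and vehicle, CDH1 is as low with both agents as with TGFβ, and ZC3HAV1 is lower with both agents than in the other 3 groups.

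Genes of the TGFβ pathway itself were away from vehicle at each level. Among ligands, INHBA, which encodes an activin subunit, rose by 3.35 and TGFB1 by 1.45, whereas INHBB fell by 3.80, BMP4 by 1.65 and TGFB2 by 0.64. Among receptors, TGFBR1 rose by 0.72, and TGFBR2 and the co-receptor TGFBR3 fell by 0.80 and 1.48. Counting latency proteins and antagonists such as NOG (3.75), 13 of 23 were higher and 7 lower. Of 28 feedback and target genes, 23 were higher and 1, TIMP3, lower (median 1.86). This list was chosen with earlier results of these data known and holds KANK4, one of the 8 largest rises. SMAD7, an inhibitory SMAD that closes the feedback loop, was at 10.5, 7.76 and 8.04 CPM with vehicle and 74.8, 69.3 and 67.9 CPM with both agents. The groups did not overlap, and the log2 change was 3.01. PMEPA1, which restrains SMAD signalling, rose by 4.15, and the repressor BHLHE40 by 2.71. ID3, an inhibitor of differentiation, was at 21.7, 22.6 and 14.4 CPM with vehicle, 11.6, 10.9 and 8.73 CPM with Aramchol, 44.9, 49.3 and 55.2 CPM with TGFβ and 34.5, 29.7 and 39.4 CPM with both. It lay below vehicle with Aramchol and above it with both agents (adjusted p = 0.0231 and 0.000459, edgeR).

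The largest rises and falls by fold were mostly genes that one of the groups barely expressed. AMTN, which encodes the enamel protein amelotin, was at 7.24, 7.16 and 4.10 CPM with both agents and at 0.0155, 0.0165 and 0.0144 CPM with vehicle, under the floor of 3 counts in each vehicle library. KANK4, R3HDML, COMP, CHRNA9 and SYTL5 averaged 17.9, 7.21, 15.8, 8.50 and 9.21 CPM with both agents and at most 0.147 CPM with vehicle. COMP is a cartilage matrix protein. NKD1, an inhibitor of Wnt signalling, was at 14.8 to 19.1 CPM against 0.273 to 0.329 CPM, and ODAPH, another gene of enamel, at 51.4, 47.9 and 43.5 CPM against 0.791, 0.511 and 0.417 CPM. Among falls, MUC6, a secreted mucin, went from 173, 171 and 97.7 CPM to 2.08, 3.46 and 1.09 CPM (-6.07, SE 0.28). CHI3L1, a chitinase-like glycoprotein, averaged 19.3 CPM with vehicle and 1.22 CPM with both. INHBB, STEAP4, RCSD1, C9orf152, NRG2 and WNT4 completed the 8 largest falls, with log2 changes from -3.80 to -3.66.

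Epithelial genes were low. CDH1 (GRCh38, chromosome 16, 68737292 to 68835537), the gene of the adhesion protein E-cadherin, was at 77.9, 79.0 and 61.7 CPM with vehicle and 9.30, 11.3 and 10.2 CPM with both agents. The groups did not overlap, and the log2 change was -2.83 (SE 0.10, edgeR adjusted p = 1.31e-11). Of 28 junction genes 13 were lower and 6 higher: TJP3, a tight junction scaffold, fell by 2.66 and EPCAM by 1.13, and CLDN4 rose by 1.29. Of 16 epithelial transcription factors and splicing regulators, 10 were lower and 0 higher, also with upper quartile scaling, with ELF3 down by 2.61 and EHF by 2.22. Mesenchymal genes were higher in 18 of 24 cases and lower in 3, with SNAI1 and SNAI2, repressors of E-cadherin, up by 3.08 and 2.71, and the intermediate filament gene VIM by 1.12. S100A4 and TWIST1, which are also counted as mesenchymal, fell by 0.89 and 0.53. The mesenchymal list was chosen with earlier results known and holds NKD1, one of the 8 largest rises. The contractile genes were higher in 12 of 21 cases, among them TAGLN (2.94) and CNN1 (3.13). ACTA2, the smooth muscle actin of myofibroblasts, was at 8.89, 9.45 and 8.43 CPM with vehicle and 10.6, 8.57 and 10.2 CPM with both agents, so that the groups overlapped (log2 change 0.13, 95% interval -0.11 to 0.37).

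Cholangiocyte markers moved both ways, 6 higher and 6 lower of 19, beside 18.2% and 17.0% of all tested genes. AQP1, a water channel, rose by 4.49 and CD24 by 1.09, and MUC1, a membrane mucin, fell by 0.99. KRT19, a bile duct keratin, was at 33.4, 31.6 and 17.1 CPM with vehicle and 15.5, 14.8 and 16.6 CPM with both agents, with vehicle replicate 3 the nearest to the treated libraries (-0.81). KRT7 was at 706, 677 and 275 CPM against 872, 804 and 699 CPM and was not called (0.52, edgeR adjusted p = 0.114), with the third vehicle library far below the other two. It was called higher with a term for number 3 (0.60), from the libraries numbered 1 and 2 alone (0.28), without vehicle replicate 1 (0.74) and with no filter. Keratinocyte markers were higher in 7 of 11 cases: KRT17 rose by 3.55 and KRT16 by 4.60, while TP63, the master factor of basal epithelium, fell by 3.10. Their summed level was 82.7 to 129 CPM with vehicle and 535 to 629 CPM with both agents. Summed fibroblast markers were at 402 to 472 CPM with vehicle and 617 to 674 CPM with both agents, with 4 higher and 3 lower of 13 tested. Among them FBLN1, PDGFRB and THY1 reached 325, 213 and 121 CPM in their highest libraries, whereas COL3A1 and DPT stayed at most at 0.120 and 0.0845 CPM. The part of other cell types in these changes was not tested.

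**Figure D2:**
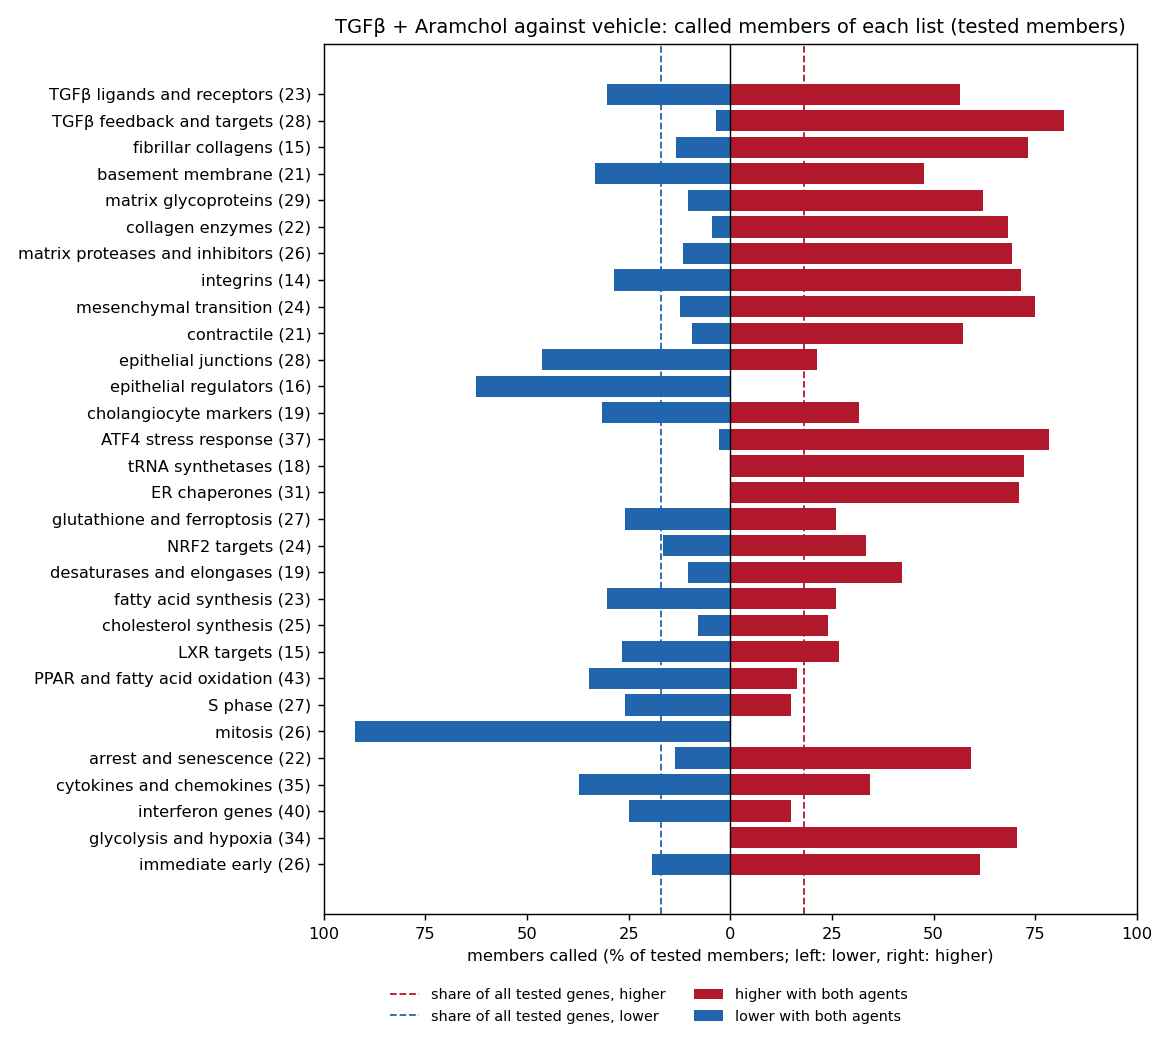
Share of tested members of each list that was called higher (right) or lower (left) with both agents against vehicle, in percent, with the number of tested members in brackets and dashed lines at the shares of all tested genes, 18.2% and 17.0%. Mitosis genes and epithelial regulators hold no higher call, and tRNA synthetases, ER chaperones and glycolysis genes no lower one.

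The ATF4 program was above vehicle as well. ATF4 is a transcription factor made under amino acid or ER stress, which raises amino acid uptake and synthesis when protein synthesis is limited. ATF4 was at 186, 187 and 167 CPM with vehicle, 243, 238 and 249 CPM with Aramchol, 229.9, 228 and 231 CPM with TGFβ and 303, 278 and 299 CPM with both. All 3 libraries with both agents were above every other library of the series. Against vehicle its log2 change was 0.70 (SE 0.05), and it was also called above each single agent (0.35 against TGFβ and 0.27 against Aramchol). Of 37 ATF4 pathway genes, 29 were higher and 1, SLC43A1, lower (median 0.60). In the other groups, against the same vehicle libraries, 21 were higher and 4 lower with TGFβ (18.9% and 18.1% of all tested genes), and 11 were higher and 0 lower with Aramchol (0.236% and 0.121%).

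CHAC1, an enzyme that degrades glutathione, was at 4.16, 3.18 and 2.96 CPM with vehicle and 10.2, 10.4 and 13.0 CPM with both agents. SLC7A11, the cystine importer, was at 2.47, 2.88 and 2.98 CPM against 8.30, 9.81 and 11.1 CPM. Neither overlapped with vehicle, and the log2 changes were 1.71 and 1.81. Their means with Aramchol alone were 9.10 and 8.16 CPM, and both agents against Aramchol was not called for either (edgeR adjusted p = 0.115 and 0.265). ASNS, which makes asparagine, was low throughout, at 0.729, 0.560 and 0.806 CPM with vehicle and 1.62, 1.33 and 1.67 CPM with both agents (1.13). The leucine transporter SLC7A5 rose by 2.18, its partner SLC3A2 by 1.14 and the peptide hormone gene ADM2 by 2.09. TRIB3, a pseudokinase induced by ATF4, was at 39.7, 37.1 and 29.5 CPM against 55.7, 52.7 and 58.0 CPM (0.65). DDIT3, the stress factor CHOP, was at 5.75, 5.52 and 4.46 CPM against 7.30, 6.65 and 5.33 CPM, overlapped with vehicle and was not called (0.29, edgeR adjusted p = 0.103). It was called higher with a term for number 3 (0.29), from the libraries numbered 1 and 2 alone (0.31) and without TGFβ + Aramchol replicate 3 (0.41). Of 18 tRNA synthetases, which charge tRNA with amino acids, 13 were higher and 0 lower, led by TARS1 (0.74).

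The stretches ahead of CHAC1 and ASNS are shown because they hold the letters TGATGNAA, a motif of ATF4 with its partners, read on both strands. Both are RefSeq sequence of build GRCh38.p14, in gene orientation, with the match in capitals and 10 bases on each side. They are chr15:40953252-40953279 (plus strand, match from 209 bases before the start) and chr7:97872459-97872486 (minus strand, match from 68 bases before the start). Exons that the deposited table lists for other transcripts cover both matches.
CHAC1: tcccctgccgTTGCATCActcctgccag
ASNS: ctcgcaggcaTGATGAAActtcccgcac
Of 27305 promoters in the RefSeq table, 3.19% held the motif in the 250 bases before the start. Among the 32 tested ATF4 pathway genes with a promoter in that table, 3 held it, namely CHAC1, ASNS and ATF3, which were among the 25 that were higher.

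Genes of the secretory pathway were higher. Of 31 ER chaperones and transport factors, 22 were higher and 0 lower (upper quartile scaling gave 1 lower), and none of these calls reached 2-fold. With TGFβ alone 24 were higher and 1 lower, and the median log2 change was 0.58, against 0.37 with both agents. Against TGFβ, both agents were called lower in 11 of the 31 and higher in 0, beside 1.36% and 0.890% of all tested genes. HSPA5, the main ER chaperone, rose by 0.71, and XBP1, a factor of the unfolded protein response, by 0.61. SEC24D, a coat protein of the vesicles that carry collagen out of the ER, was at 58.2, 59.6 and 57.8 CPM with vehicle, 107, 111 and 118 CPM with TGFβ and 109.8, 111 and 117 CPM with both agents. With Aramchol it was at 85.0, 81.7 and 84.2 CPM. Both agents were called above vehicle (0.95) and above Aramchol (0.43), and the libraries overlapped with those of TGFβ.

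Lipid genes showed smaller and mixed differences. SCD was at 499, 530.1 and 380.5 CPM with vehicle and 905, 883 and 979.8 CPM with both agents, a log2 change of 0.97 (SE 0.10, edgeR adjusted p = 2.29e-06) without overlap. FASN, fatty acid synthase, was at 758, 688 and 482 CPM against 787, 810.3 and 933 CPM (0.39, edgeR adjusted p = 0.0343), and its call was lost in 5 alternatives, among them without vehicle replicate 3 (0.22) and from the libraries numbered 1 and 2 alone (0.14). Of 23 genes of fatty acid synthesis, 6 were higher and 7 lower: MLXIPL, the carbohydrate response factor ChREBP, fell by 3.18 and its relative MLXIP rose by 1.03. Of 25 cholesterol synthesis genes, 6 were higher and 2 lower, and 21 lay near vehicle. Beside these lists, 18.2% of all tested genes were higher, 17.0% lower and 45.8% near vehicle. HMGCS1, an early enzyme of that pathway, was at 114, 117 and 78.4 CPM against 107, 104 and 127 CPM and was not called. ABCA1, a cholesterol exporter, was at 32.1, 34.3 and 35.2 CPM against 66.4, 77.4 and 74.1 CPM (1.10), while APOE, another LXR target, fell by 0.79.

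Genes of PPAR signalling and fatty acid oxidation were lower in 15 of 43 cases and higher in 7 (20 and 6 after upper quartile scaling). The shares of all tested genes were 17.0% lower and 18.2% higher in the main fit. PDK4 is a kinase that restrains pyruvate dehydrogenase inside mitochondria. Its level was 10.9, 10.9 and 12.5 CPM with vehicle and 19.3, 17.6 and 13.5 CPM with Aramchol. PDK4 was at 1.95, 1.80 and 1.87 CPM with TGFβ and 4.99, 5.17 and 2.62 CPM with both. It stayed below vehicle (-1.42, SE 0.19) and above TGFβ (1.18, edgeR adjusted p = 0.0137). CPT1A, the gate of mitochondrial fatty acid import, was at 60.7, 59.9 and 60.6 CPM with vehicle and 53.4, 55.1 and 34.2 CPM with both agents, with the third library of the treated group the lowest. Its log2 change of -0.35 (95% interval -0.64 to -0.05) was not called (edgeR adjusted p = 0.0621), and the interval reached past 1.5-fold. It was called lower with upper quartile scaling, no filter, DESeq2, a term for number 3, and without TGFβ + Aramchol replicate 1 or 2 (-0.47 to -0.34), and also from the libraries numbered 1 and 2 alone, where the change was -0.15. ANGPTL4, a secreted lipase inhibitor, was at 5.09, 4.68 and 3.87 CPM against 88.2, 85.2 and 46.6 CPM (4.01), again with the third library lowest. PLIN5, a lipid droplet coat protein, fell by 2.46 and the coactivator gene PPARGC1A by 1.98.

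Mitosis genes were slightly lower, 24 of 26 with 0 higher, with a median log2 change of -0.28, and 21 lay near vehicle. Of 27 S phase genes, 4 were higher and 7 lower, and 24 lay near vehicle. Among all tested genes 18.2% were higher, 17.0% lower and 45.8% near vehicle. Of the mitosis genes, HMMR, a spindle protein, fell by 0.56 and the proliferation marker MKI67 by 0.40. CDKN1A and CDKN2B, inhibitors of cyclin-dependent kinases, rose by 1.85 and 1.97. Of 34 glycolysis and hypoxia genes 24 were higher and 0 lower (21 and 1 after upper quartile scaling), led by the growth factor gene VEGFA (1.94) and the glycolysis regulator PFKFB4 (1.79). Notch genes HEYL (3.75) and JAG1 (1.34) rose, JAG1 from 64.5, 65.7 and 64.5 CPM to 164, 167 and 161 CPM. Among 35 cytokines, 12 were higher and 13 lower, beside 18.2% and 17.0% of all tested genes. IL11, a fibrogenic cytokine, rose by 4.83 and the platelet growth factor gene PDGFB by 3.18, while the neutrophil chemokines CXCL5 and CXCL1 fell by 1.94 and 1.34. IL6 was at 65.5, 67.1 and 30.1 CPM against 59.5, 61.6 and 37.6 CPM and overlapped with vehicle, with the third library lowest in both groups.

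Of 40 interferon genes, 6 were higher and 10 lower, beside 18.2% and 17.0% of all tested genes, so the counts of this fit do not set the list apart. IFIT2 (chromosome 10, 89283694 to 89309271, plus strand), an antiviral protein that binds RNA, was at 323, 336 and 375 CPM with vehicle, 300.5, 279.8 and 194 CPM with Aramchol, 214, 196 and 122 CPM with TGFβ and 90.5, 86.4 and 62.8 CPM with both. All 3 libraries with both agents were below every other library, and the log2 change from vehicle was -2.11 (SE 0.20, edgeR adjusted p = 4.67e-07). HERC5, OASL and IFIT3 also fell at least 2-fold (-1.57, -1.52 and -1.18). BST2, a tether of budding virus, rose by 0.78, and IRF7 by 0.56. IFI6 was not called (0.46, edgeR adjusted p = 0.125). These genes also moved with the replicate number: 28 of 40 were lower and 0 higher in the libraries numbered 3, against 1584 lower and 1141 higher of all tested genes. With a term for number 3, 11 of 40 interferon genes were higher and 13 lower, beside 4527 and 4241 of 21567 tested genes. From the libraries numbered 1 and 2 alone, 16 of 40 were higher and 13 lower, beside 4020 and 3808 of 21762. In both settings the shares of the list lay above those of all tested genes, so its standing depends on how number 3 is treated.

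The letters GAAA, 2 free bases and GAAA again, a form of the interferon response element, stood ahead of genes that fell and of genes that were not called, which is why HERC5, IFIT3 and IFI6 are shown. The sequences are RefSeq, GRCh38.p14, in gene orientation, up to 250 bases before the start and cut where an exon of the deposited table begins, with matches on either strand in capitals. They are chr4:88456869-88457118 (plus strand), chr10:89327747-89327940 (plus strand) and chr1:27672213-27672442 (minus strand). The first run of capitals in HERC5 is 2 overlapping matches.
HERC5: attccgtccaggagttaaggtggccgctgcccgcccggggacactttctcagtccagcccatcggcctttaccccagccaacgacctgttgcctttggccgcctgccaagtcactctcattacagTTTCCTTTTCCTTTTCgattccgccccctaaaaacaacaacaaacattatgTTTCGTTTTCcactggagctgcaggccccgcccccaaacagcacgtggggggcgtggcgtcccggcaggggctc
IFIT3: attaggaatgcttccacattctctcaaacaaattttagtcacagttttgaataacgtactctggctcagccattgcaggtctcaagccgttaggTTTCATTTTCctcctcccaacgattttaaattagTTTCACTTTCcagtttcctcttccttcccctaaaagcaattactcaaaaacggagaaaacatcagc
IFI6: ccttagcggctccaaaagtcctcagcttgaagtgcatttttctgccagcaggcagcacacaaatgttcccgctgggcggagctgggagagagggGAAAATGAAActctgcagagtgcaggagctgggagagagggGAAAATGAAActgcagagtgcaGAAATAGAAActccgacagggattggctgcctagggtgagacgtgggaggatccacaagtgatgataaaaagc
The motif was in 3.07% of the 27305 promoters and in 16 of the 31 interferon genes with a promoter in the table. By call, it was in 3 of 6 lower genes (HERC5, IFIT3 and IFIT1), 3 of 5 higher genes (BST2, OAS3 and TAP1) and 10 of 20 genes that were not called. A match describes these letters only.

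A change only when both agents were given was called for 20 genes. The strict definition asked for a call against vehicle, a call in the same direction against TGFβ and against Aramchol, and no call for either agent alone. These 20 genes were 0.0927% of those tested, 3 higher (0.0139%) and 17 lower (0.0788%). On simulated data the definition recovered 6, 70, 92 and 100% of genes changed 1.2-, 1.5-, 2- and 4-fold with both agents only, so changes of 1.2-fold were mostly missed there. The interaction, which asks whether the joint effect departs from the sum of the single effects on the log2 scale, was called for 0 of them (0.00%) by edgeR, with 10 at an unadjusted p under 0.05 and all 20 estimates in the direction of the change. The definition selects on contrasts of the same fit, which favours that direction and small unadjusted values, so neither is separate support. Nor does the definition show that a single agent had no effect on these genes. By edgeR, unadjusted p with Aramchol alone was under 0.05 for ANPEP, APOL2, CEACAM1, CGNL1, CLDN7, FGF2, HIP1R, STRA6, TSPAN3 and ZXDB. Each moved in the same direction as with both agents. With TGFβ alone it was under 0.05 for CGNL1 and a gene without a symbol. DESeq2 gave 45 genes by the same definition, 1 of them with the interaction called. The number of genes ran from 2 without TGFβ + Aramchol replicate 1 to 40 without vehicle replicate 3, and was 4 without TGFβ + Aramchol replicate 2. It was 10 without Aramchol replicate 1 and 11 without Aramchol replicate 2, and 7, 6 and 11 without TGFβ replicates 1, 2 and 3 in turn. It was 73 with a term for number 3 and 63 from the libraries numbered 1 and 2 alone, of which 15 and 7 were among the 20.

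ZC3HAV1 (ENSG00000105939, chromosome 7, 139043515 to 139132122, minus strand), a zinc finger protein that binds viral RNA, was the one gene that met this definition under all 20 other settings of fit, scaling, filter and libraries. It was at 392, 402 and 435 CPM with vehicle, 409, 405 and 334 CPM with Aramchol, 395, 397 and 360.0 CPM with TGFβ and 249, 260.0 and 254 CPM with both. The 3 libraries with both agents were below all 9 others. It fell by 0.69 against vehicle (SE 0.07, edgeR adjusted p = 1.94e-06), by 0.60 against TGFβ and by 0.59 against Aramchol, while the interaction was -0.50 (edgeR adjusted p = 0.303). Over the 20 other settings the interaction ran from -0.68 to -0.45 and was called in 5: DESeq2, no filter, a term for number 3, the libraries numbered 1 and 2 alone, and without Aramchol replicate 3.

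The other 19 genes met the definition in 7 to 16 of those settings and varied in size. CEACAM1, an adhesion protein of epithelia, was at 11.3, 10.2 and 8.75 CPM with vehicle and 4.34, 4.46 and 3.19 CPM with both agents (-1.34). FGF2, a growth factor, was at 72.5, 68.1 and 67.7 CPM against 36.3, 41.3 and 34.0 CPM, with 58.5 CPM for TGFβ and 58.1 CPM for Aramchol on average. STRA6, the vitamin A transporter, was at 15.6, 13.9 and 6.36 CPM against 4.10, 4.66 and 4.25 CPM, with the third vehicle library near the Aramchol libraries. It met the definition in 10 of the 20 settings, and did not without vehicle replicate 3 or from the libraries numbered 1 and 2 alone. Among the further members, PLCG2, a phospholipase of receptor signalling, fell by 0.90, TP53I11 by 0.77, TSPAN18 by 0.86 and the nuclease-like gene EEPD1 by 0.55. TP53I11 and TSPAN18 overlap on opposite strands of chromosome 11. How strand was set is not stated, so they may not be separate members. Outside the naming rule, and so chosen after their values were seen, are CGNL1 and CLDN7, both of tight junctions, the antiviral deaminase APOBEC3C, the apoptosis gene PMAIP1, ANPEP, APOL2, HIP1R, the pseudogene ZBED10P and 1 gene without a symbol. The 3 genes that rose were ZXDB (24.4, 22.1 and 25.7 CPM with vehicle, 35.0, 36.5 and 30.5 CPM with both), the translation start factor EIF1 (0.23) and the membrane protein TSPAN3 (0.26). No library with both agents overlapped with vehicle for any of the 20, where 44.0% of all tested genes did not overlap. The definition demands a call against vehicle, so this follows largely from the selection.

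**Figure D3:**
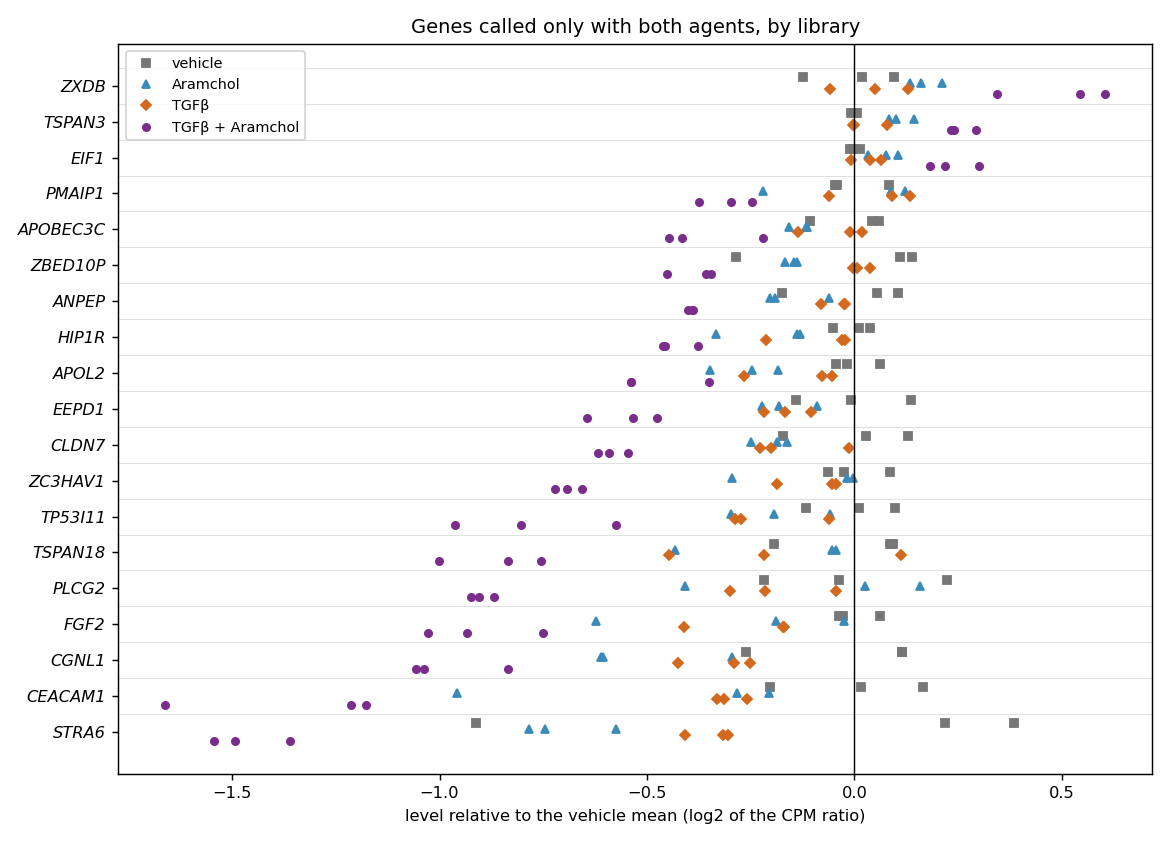
Level of 19 genes that met the strict definition (the one without a symbol is left out) in each library, as log2 of the ratio to the vehicle mean on the horizontal axis. The libraries with both agents lie to one side of the vehicle libraries for each gene, and the single-agent libraries all lie on the vehicle side of them. The genes were selected by calls between these same groups.

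A looser count, with a call against vehicle and none for either agent alone, held 1568 genes (7.27%), 667 higher (3.09%) and 901 lower (4.18%). It does not show that they needed both agents: 512 of them had an unadjusted p under 0.05 with TGFβ and 430 with Aramchol, 768 lay near vehicle, and both agents against TGFβ was called the same way in 74.

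For genes that TGFβ alone moved far, a return to the vehicle level was not shown by the edgeR fit. Of 2336 genes called and at least 2-fold changed with TGFβ, 0 had an interval near vehicle with both agents by edgeR, also when TGFβ was asked only for an unadjusted p under 0.05, and 2 did by DESeq2. Over all the alternatives this number ran from 0 to 9, and with the unadjusted p from 0 to 36, the highest with no filter. A wide interval also fails this demand, and both changes are measured from the same vehicle libraries. The count therefore does not show how many of these genes stayed away from vehicle. FN1, TGFBI, COL1A1, CDH1 and MUC6 stayed outside 1.5-fold with their whole intervals. A wider definition, chosen after the data were seen, dropped the 2-fold demand and asked for no call against vehicle, an opposite call against TGFβ and an interval near vehicle. By this definition there were 83 protein coding genes of at least 5 CPM, 30 that TGFβ alone had raised and 53 that it had lowered, of which the 6 each way with the largest TGFβ change are described.

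MYL9, a myosin light chain of contractile cells, was at 151, 134 and 86.4 CPM with vehicle, 243, 234 and 231 CPM with TGFβ and 152, 131 and 148 CPM with both. The libraries with both agents overlapped with vehicle and lay below TGFβ (log2 change from vehicle 0.22, 95% interval -0.07 to 0.50). LOXL3, an enzyme that cross-links collagen, was at 10.1, 10.7 and 6.86 CPM, 17.2, 19.2 and 18.7 CPM and 10.8, 11.2 and 10.9 CPM in the same order (0.25). LRFN1, ANXA6, EFNB3 and CRELD2 were between 0.16 and 0.23 from vehicle with both agents, and between 0.60 and 0.86 with TGFβ. Against vehicle, EFNB3 was called with a term for number 3 (0.23), without vehicle replicate 1 (0.30) and with no filter. MYL9 was called without vehicle replicate 1 (0.39) and with no filter, CRELD2 without vehicle replicate 1 (0.27), and ANXA6 without TGFβ + Aramchol replicate 2 (0.22) and with no filter. In the other direction PTX3, a secreted pattern recognition protein, was at 7.76, 7.90 and 5.19 CPM with vehicle, 4.09, 3.91 and 3.47 CPM with TGFβ and 6.41, 6.88 and 5.39 CPM with both. CCDC146, FHIP1A, MEPCE, DUSP8 and ACYP2 were -0.20 to -0.10 from vehicle with both agents, against -0.78 to -0.60 with TGFβ. FHIP1A was called lower than vehicle with a term for number 3, upper quartile scaling and a stricter filter (-0.25 to -0.20).

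**Figure D4:**
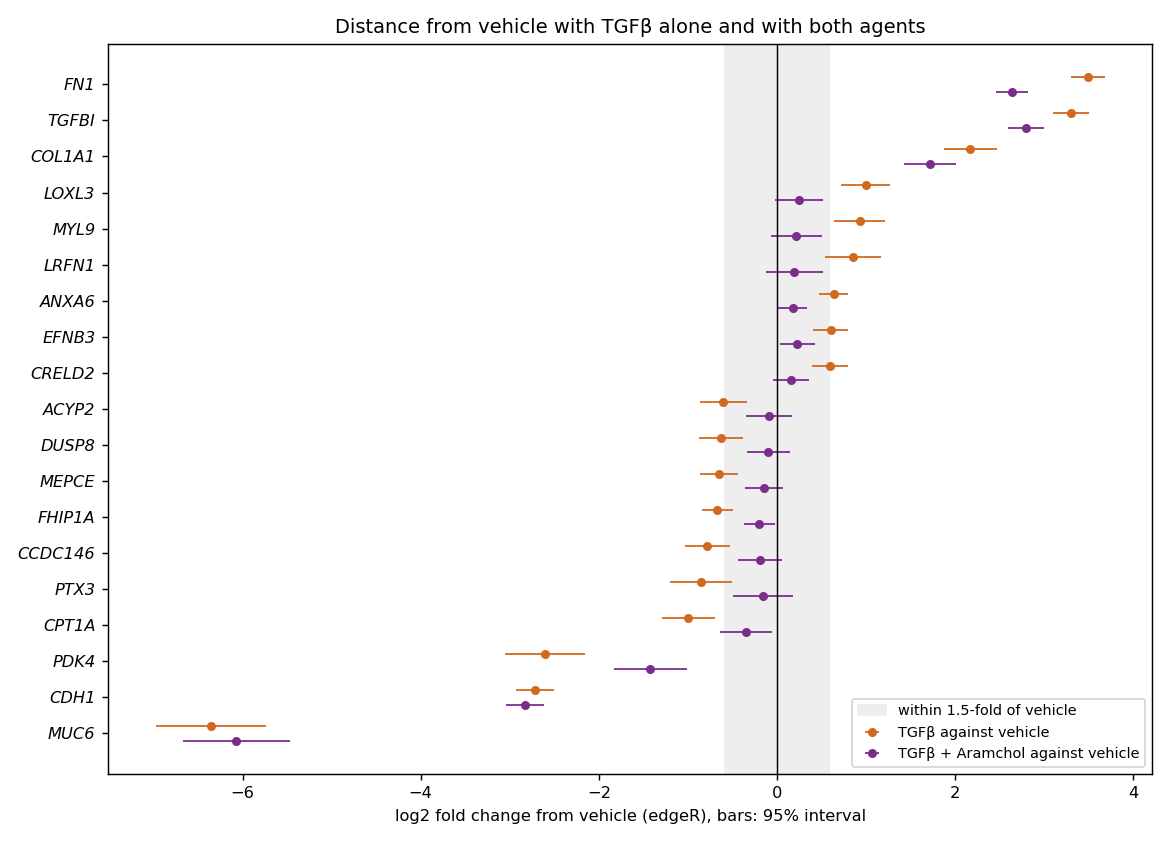
Log2 fold change from vehicle with its 95% interval for TGFβ alone and for both agents (horizontal axis), with the band within 1.5-fold of vehicle in grey. The 12 genes of the wider definition lie inside the band with both agents, while FN1, TGFBI, COL1A1, PDK4, CDH1 and MUC6 lie outside it.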

How the data were processed

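Total RNA of 12 H69 libraries was sequenced. The submitters' processing notes name STAR 2.7.9a, featureCounts of Subread, DESeq2 and build GRCh38. The deposited table holds counts by the authors, as whole reads per gene and library. How strand was set and which annotation was used is not stated in the labels, so antisense partners, overlapping genes and near-identical copies are uncertain. Reads carry no molecular identifiers, so a floor of 3 counts (0.0427 to 0.0574 CPM) covers counting error only. Of 62703 genes, 20616 had no count and 21567 passed filterByExpr. All 12 libraries were fitted with edgeR 4.0.16 (R 4.3.3), TMM scaling and 1 mean per group, and 95% intervals used the standard error from the F statistic. DESeq2 1.42.0 was an alternative, beside other scalings, filters, a replicate block, a term for number 3, fewer libraries and each library left out in turn. Genes were named by rule: 25 fixed genes, the 8 largest rises and falls of at least 5 CPM without overlap, up to 8 each way that changed only with both agents, genes back near vehicle after a 2-fold change with TGFβ (0 qualified), and, in each list with 3 or more calls, its 2 members of smallest p. The members of the comparison, the 41 lists and the naming rule were chosen with earlier results of these data known, and further list members are given as examples chosen after their values were seen. Some genes that the rule names are not reported here. On simulated data for both agents against vehicle (21061 genes), 20, 78, 92 and 100% of genes changed 1.2-, 1.5-, 2- and 4-fold were called, with 12 false calls. Only 50 genes per fold were changed, none of low counts and all in the combined group alone. With so few changes the adjusted p is harder to pass than in the real data, and no shift of number 3 was simulated. Python 3.11.15 prepared tables and figures.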

Additional observations from a re-analysis of the deposited data

Results flagged for a closer look

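For 3 genes named in the text, TGFβ had an effect that differed with and without Aramchol, by the interaction term of the edgeR fit. The interaction was -0.85 on the log2 scale for FN1 (SE 0.11, edgeR adjusted p = 0.0205), -0.47 for JAG1, the Notch ligand (adjusted p = 0.0205, edgeR), and -0.51 for SEC24D (adjusted p = 0.0233, edgeR). FN1 averaged 659 ± 29.4 CPM with vehicle, 659 ± 16.5 CPM with Aramchol, 7418 ± 798 CPM with TGFβ and 4110.3 ± 434 CPM with both (SD, n = 3 libraries each). These 3 were the genes of 21567 with a called interaction in the edgeR fit (0.0139%), and the number is not stable: it was 26 with DESeq2, 31 with a term for number 3, 151 with no filter, 191 from the libraries numbered 1 and 2 alone and 0 to 7 when 1 library was left out.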

How the results depend on the processing

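The counts of genes higher, lower and near vehicle stayed within 1.5 times under each alternative, except that a limit of 1.2-fold left 3728 genes near vehicle. Leaving out 1 library gave 3391 to 3966 genes higher and 3031 to 3659 lower. The count of genes changed only with both agents did not hold: it was 56 with no filter, 45 with DESeq2, 73 with a term for number 3, 63 from the libraries numbered 1 and 2 alone, 0 when the interaction had also to be called, and 2 to 40 when 1 library was left out. The replicate block, a term for the replicate number, gave 63, of which 16 were among the 20 reported, and 23 called interactions. It also called KRT7, CPT1A, DDIT3, EFNB3 and FHIP1A against vehicle. The numbers do not pair the samples by any label, and deviations of same-numbered vehicle and TGFβ + Aramchol libraries correlated at 0.107, 0.0621 and 0.150. The cause of these shifts was not tested. Over the named genes and alternatives, 2646 values kept their call status, 36 gained a call and 5 lost it (all FASN). None that was called in the main or the alternative fit turned. For values called in neither, direction was not compared. Changes of 1.2-fold were mostly missed on the simulated data, where far fewer genes changed. How often such changes are missed in the real libraries was not tested.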
